A study of Mus musculus with 5 samples.

Results

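The clustered protocadherins are a family of cell-surface adhesion genes arrayed in 3 neighbouring clusters, Pcdha, Pcdhb and Pcdhg, on mouse chromosome 18. Members were taken as the protein-coding genes of the GENCODE M21 annotation (build mm10) on chromosome 18 whose symbol starts with Pcdha, Pcdhb or Pcdhg. This gave 57 gene entries of 21755 protein-coding genes on the 19 autosomes and the X chromosome, 14 in Pcdha, 22 in Pcdhb and 21 in Pcdhg. They carry 56 distinct symbols, because Pcdha11 names 2 entries that start 5.509 kb apart. The repressive histone mark H3K27me3 was measured over them by ChIP-seq in fibroblasts with and without the demethylase Kdm6b.

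The clusters are best known from neurons, where each cell makes a small set of protocadherin isoforms that gives its branches a surface identity and lets them recognise and avoid each other. In Pcdha and Pcdhg, each variable exon has a promoter of its own and is spliced to constant exons at the 3′ end that the whole cluster shares, whereas the Pcdhb genes have a single coding exon and share none. Most variable promoters are used at random from cell to cell, and the C-type members (Pcdhac1, Pcdhac2, Pcdhgc3, Pcdhgc4 and Pcdhgc5) are used more evenly. H3K27me3 is placed by Polycomb repressive complex 2 on genes that are kept silent, and Kdm6b, also named Jmjd3, removes it.

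Dermal cells of late mouse embryos were expanded in culture before chromatin was prepared, with 2 libraries from Kdm6b-cKO embryos (replicates 3 and 4) and 2 from WT embryos (replicates 7 and 9). In Kdm6b-cKO, floxed Kdm6b alleles are deleted by a Cre expressed from Dermo1 (Twist2), a gene of dermal fibroblasts, so other cell types of the skin keep the gene. The labels give a sort for GFP-positive cells for every sample, WT included, and say neither whether WT embryos carried floxed alleles or the Cre nor whether replicates came from separate embryos, so a p-value measures only the spread between these libraries. An input library was not used here, and peak positions hold no measure of the Kdm6b deletion itself.

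The data were 4 lists of broad peaks, the stretches in which the authors' caller found the mark above local background. They hold no read counts, so the number of reads behind a peak is unknown. The Kdm6b-cKO lists (replicates 3 and 4) held 44077 and 40565 peaks over 5.63% and 4.704% of the genome, and the WT lists (replicates 7 and 9) 29841 and 22597 peaks over 3.47% and 2.337%. On chromosome 18 the lists covered 3.133% and 2.669% in Kdm6b-cKO against 1.817% and 1.195% in WT. The longer lists of Kdm6b-cKO and the genotype cannot be told apart in any comparison of covered length below. A larger share of cells with the mark and more mark per cell cannot be told apart either. None of 18 fibroblast core markers, such as Col1a1, Pdgfra, Twist2 and Dcn, had a marked promoter in any library. Promoters were marked in at least 1 library for 8 of 12 keratinocyte, 2 of 6 endothelial, 3 of 6 immune, 4 of 7 melanocyte and Schwann, and 6 of 6 skeletal muscle markers. The share over all protein-coding promoters was 28.8%.

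Nearly all clustered protocadherin promoters lay outside H3K27me3 peaks in both genotypes. A promoter was taken as the transcription start site (TSS) ± 3 kb, and it was marked where peaks of a library covered at least 500 bp of it. Of the 57 members, 54 had no covered base in any of the 4 libraries, and the 3 marked in at least 1 library were Pcdhac2, Pcdhac1 and Pcdhga1. Over all protein-coding promoters, 28.8% were marked in at least 1 library. Kdm6b-cKO replicates 3 and 4 marked 2 and 3 members, and each WT library marked 1.

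Pcdhac2 was the 1 member marked in all 4 libraries, against 15.1% of all promoters. Pcdhac1 was the 1 member marked in both Kdm6b-cKO libraries and in neither WT library, a pattern of 4.28% of all promoters, and 0 members had the mirrored pattern. Limma was fitted to the covered percent of 6258 promoters, those marked in 1 library or more, with Benjamini-Hochberg adjustment. Of these promoters, 7.97% were higher and 0.0959% lower in Kdm6b-cKO at an adjusted p under 0.05, which is 499 and 6 promoters. With each library cut to the covered length of the shortest list, this split became 135 higher and 78 lower. Of the 3 members that entered the fit, 1 was higher, Pcdhac1, and 0 were lower. Pcdhac1 entered through the Kdm6b-cKO libraries alone, and its call was lost with no filter. At an unadjusted p under 0.05 (limma), 1 member was higher and 0 lower, beside 1602 and 44 of the 6258 promoters.

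**Figure D1:**
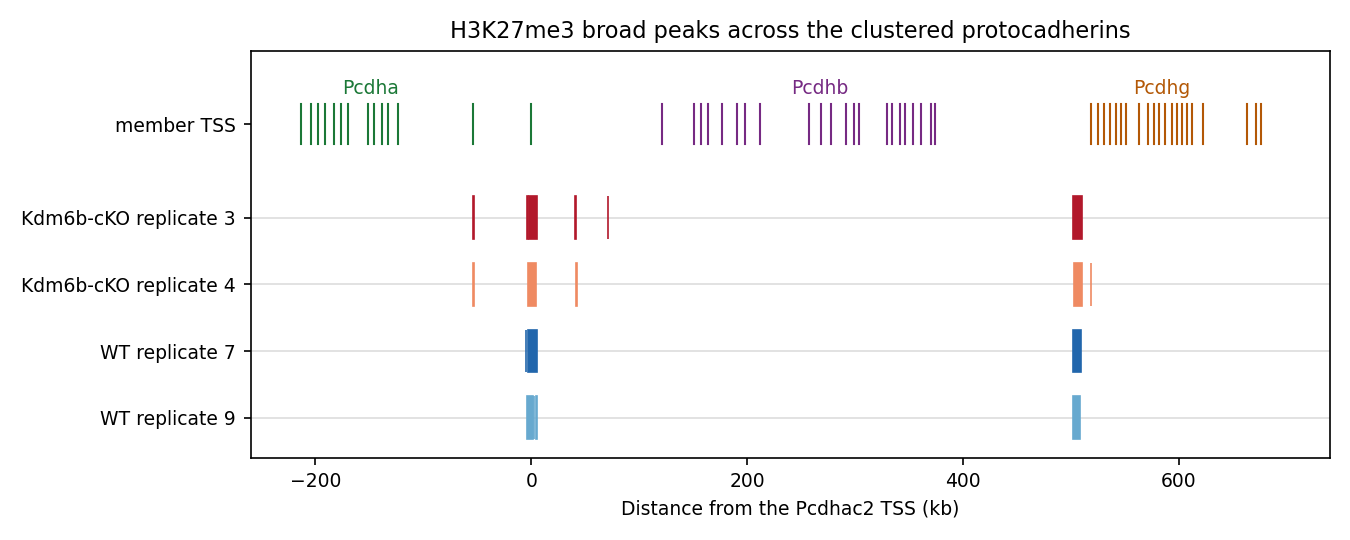
H3K27me3 broad peaks of 2 Kdm6b-cKO and 2 WT libraries across the clustered protocadherins, by distance from the Pcdhac2 TSS in kb, with member TSSs as coloured lines above. All 4 libraries have a block over Pcdhac2 and a block ahead of Pcdhg, and the Pcdhb TSSs lie over an empty stretch. The thin lines at Pcdhac1 and at the last Pcdha constant exon appear in the Kdm6b-cKO libraries alone. Peaks shorter than the line width are drawn wider than they are.

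Pcdhac2 is the last variable exon of Pcdha and the member nearest to the constant exons (chromosome 18, 37143503 to 37187657, plus strand). Peaks covered 5160 and 6001 bp of its promoter in Kdm6b-cKO replicates 3 and 4, against 6001 and 4843 bp in WT replicates 7 and 9. These are 85.99% and 100% of the window in Kdm6b-cKO, against 100% and 80.7% in WT. One library of each genotype was covered throughout, and the groups overlapped. The difference was 2.64 ± 10.6 percentage points (SE) with an adjusted p of 0.964 by limma. Its sign depended on the setting, at −7.01 to 12.3 points with a library left out, −14.5 points with centred libraries and 43 points with peaks of −log10 q of at least 5, and it passed in 0 of 12 alternatives. Over all tested promoters the median difference was 11.69 points and the mean 17.19. The mean coverage of Pcdhac2, 91.67%, was at or above that of 68.34% of the 3294 promoters marked in all 4 libraries, of which 637 were covered throughout in every library.

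The block over Pcdhac2 spanned −4.265 to +5.329 kb around its TSS when the 4 lists were merged, a region of 9595 bp. Of these bases, 42.13% lay in peaks of all 4 libraries and 41.95% in peaks of 3. Peaks took up 8555 and 7640 bp of the region in Kdm6b-cKO libraries, against 8256 and 6450 bp in WT, and the groups overlapped here as well. The libraries differed in how the block was divided. In Kdm6b-cKO replicate 3 a peak of 1082 bp lay upstream of one of 7473 bp, replicate 4 had a single peak of 7640 bp, WT replicate 7 a single peak of 8256 bp, and WT replicate 9 a peak of 5398 bp followed by pieces of 328 and 724 bp.

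The long peaks over Pcdhac2 ranked high within their own lists. The caller's −log10 q, a measure of how far a peak stands above background that depends on the depth of a library, was 6.857 and 6.828 in Kdm6b-cKO and 5.337 and 3.93 in WT. These lay at the 95.07th and 94.9th percentile of the Kdm6b-cKO lists and the 93.08th and 81.45th of the WT lists. The mean fold over local background was 3.884 and 3.896 in Kdm6b-cKO, against 3.546 and 3.356 in WT. Percentiles are given because the lists differ in length, and no test was run on these peak values.

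The merged block took in the variable exon of Pcdhac2 and sequence on both sides of it. It ended at 37148832, in the intron ahead of the first constant exon at 37156155. The variable exon, which encodes the extracellular cadherin repeats, is 3028 bp long and was covered over 100% in both Kdm6b-cKO libraries and over 100% and 60.87% in WT. The next exons of Pcdhac2 had no covered base in any library. The last exon (37184946 to 37187657), which every Pcdha member includes, was covered over 521 and 604 bp in Kdm6b-cKO and 0 bp in both WT libraries. The peaks behind this, of 1007 and 604 bp, lay 40.96 to 42.4 kb downstream of the Pcdhac2 TSS and shared 166 bp with each other. By −log10 q they stood at the 52.73rd and 70.57th percentile of their lists. Of 54317 merged regions in the genome, 14.5% were called in both Kdm6b-cKO libraries and in neither WT library, so this pattern is common in these lists.

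**Figure D2:**
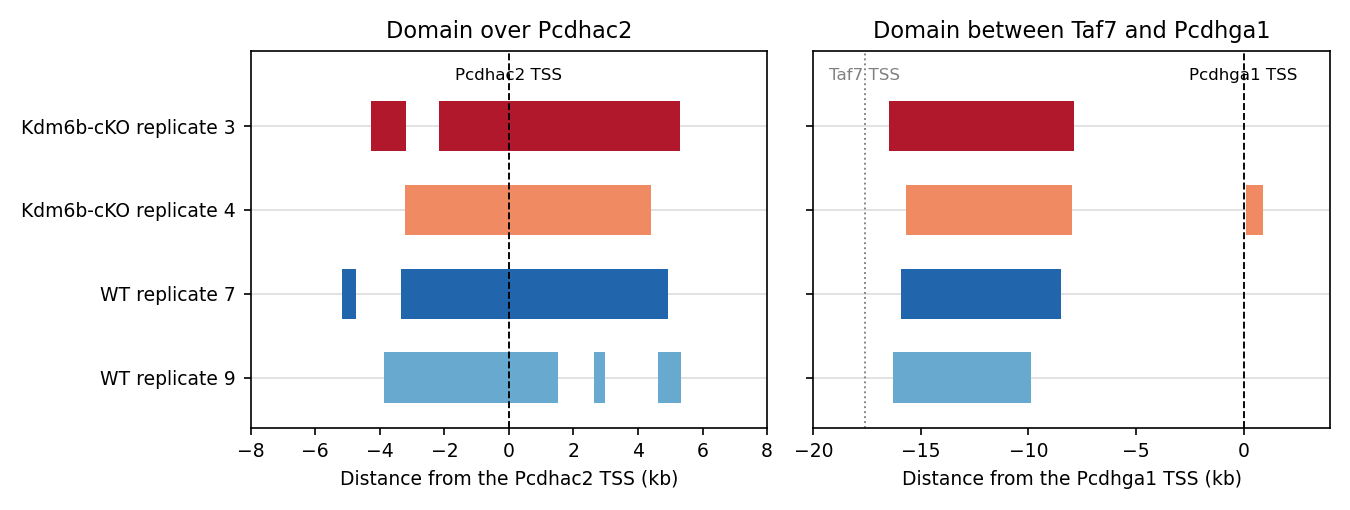
Peaks in the 2 regions of the locus that all 4 libraries share, by distance from the Pcdhac2 TSS (left) and the Pcdhga1 TSS (right) in kb, with 1 bar per peak. The block over Pcdhac2 spans the TSS in every library, whereas the block ahead of Pcdhg ends at −7.894 kb or earlier, and the short peak just after that TSS is in Kdm6b-cKO replicate 4 alone.

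Pcdhac1, the other C-type member of Pcdha, lies 53.49 kb upstream of Pcdhac2 (37090013 to 37187657, plus strand). Its promoter was covered over 919 and 764 bp in Kdm6b-cKO, against 0 and 0 bp in WT, which is 15.31% and 12.73% against 0% and 0%. The groups did not overlap, and the nearest WT peaks lay 48.31 and 49.61 kb away. The difference was 14.02 ± 1.35 points (SE), with an adjusted p of 0.0485 by limma. It lay between the median of 11.69 and the mean of 17.19 points over all tested promoters. Pcdhac1 entered this fit only through the Kdm6b-cKO libraries, the group in which it was higher. With no filter on marked promoters, the call was lost (adjusted p = 0.204, limma). Each Kdm6b-cKO library had 1 short peak across this promoter, from −0.37 to +0.548 kb of the TSS in replicate 3 and from −0.271 to +0.492 kb in replicate 4. They covered 21.45% and 19.27% of the Pcdhac1 variable exon, which spans 2559 bp. With −log10 q of 3.098 and 3.049 they stood at the 52.38th and 54.61st percentile of their lists. The call depended on the setting. It was lost where the peaks no longer marked the promoter, as with equal covered length, and also without WT replicate 7 (adjusted p = 0.16) and without WT replicate 9 (adjusted p = 0.223), and the difference turned to −3.16 points (adjusted p = 0.808) with each library centred on its mean over tested promoters (limma in each case, adjusted p from 0.00888 to 0.808 over 9 alternatives).

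The 12 other Pcdha members, the alternately used isoforms, had 0 covered bases in every library. They include Pcdha1 and Pcdha2 at the 5′ end of the cluster, whose nearest peaks in any library lay 116.9 and 125.9 kb away. For all 12 this distance was between 69.49 and 137 kb, with a median of 116.4 kb. Their TSSs lie together in a stretch of 276.4 kb (36813270 to 37089642) without a peak in any library, which ends at the Pcdhac1 peaks. Within the Pcdha cluster the mark thus began at Pcdhac1 in the Kdm6b-cKO libraries and at the block over Pcdhac2 or just upstream of it in the WT libraries.

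The Pcdhb cluster had no H3K27me3 peak at all. None of its 22 members had a covered base in any library, and neither had any of its 259.5 kb (37264938 to 37524479). Pcdhb1, which lies apart from the others and is nearest to Pcdha, was 49.93 kb from the nearest peak, a 392 bp peak of Kdm6b-cKO replicate 3, and Pcdhb2 was 79.8 kb from it. Distances went up to 209.7 kb for Pcdhb12, with a median of 144.7 kb. The stretch of 430.3 kb without a peak around the cluster (37215011 to 37645337) holds 24 protein-coding TSSs, 22 of them members. Of 54297 stretches between peaks in the genome, 1081 were at least as long, and 37 held at least as many TSSs.

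Within Pcdhg, 1 of 21 members had any covered base, and in 1 library. Pcdhga1, the first variable exon of the cluster (37661793 to 37841873, plus strand), was covered over 0 and 776 bp in Kdm6b-cKO replicates 3 and 4, against 0 bp in both WT libraries, or 0% and 12.93% against 0% and 0%. The peak lay 0.132 to 0.907 kb downstream of the TSS, over the variable exon and an exon of the antisense entry Gm37118, at the 22.45th percentile of its list by −log10 q. The groups overlapped at 0, and the difference of 6.47 ± 5.76 points (SE) had an adjusted p of 0.533 by limma. It passed in 1 of 7 alternatives (adjusted p from 0.013 to 1), the one with Kdm6b-cKO replicate 3 left out, where Kdm6b-cKO is replicate 4 alone and is assumed to vary like WT. Pcdhga2, the next member, had its nearest peak 6.253 kb away, and Pcdhga3 11.61 kb away.

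The remaining Pcdhg members lay in a stretch of 310.3 kb (37662701 to 37972986) without a peak in any library, 20 members among its 24 protein-coding TSSs. Distances to the nearest peak grew along the cluster to 102.9 kb for Pcdhga12. The 3 C-type members Pcdhgc3, Pcdhgc4 and Pcdhgc5 had 0 covered bases in every library and lay 143.7, 152.4 and 153.5 kb from a peak. The C-type group thus split, with Pcdhac2 covered in all 4 libraries, Pcdhac1 in the Kdm6b-cKO libraries, and the Pcdhg members of the group in none.

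The other long block of the locus lay between Pcdhb and Pcdhg, outside every member promoter. It spanned 8562 bp (37645338 to 37653899) at −16.45 to −7.894 kb from the Pcdhga1 TSS, and all 4 libraries had a peak there, as did 19.9% of merged regions in the genome. The Kdm6b-cKO peaks were 8562 and 7724 bp long and the WT peaks 7389 and 6341 bp, and 67.29% of the block was covered in all 4 libraries. Both Kdm6b-cKO values were above both WT values, which also held for 55% of the regions called in all 4 libraries. The −log10 q was 7.127 and 4.294 in Kdm6b-cKO against 5.134 and 4.274 in WT, so the groups overlapped in it. The peaks overlapped an exon of the pseudogene Gm8242 in both Kdm6b-cKO libraries and WT replicate 7.

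Of the genes between the clusters, Taf7, which encodes a subunit of the general transcription factor TFIID, is read away from this block on the minus strand. Its promoter was covered over 31.11% and 18.1% in Kdm6b-cKO and 21.7% and 27.76% in WT. The groups overlapped, and the difference of −0.12 ± 6.38 points (SE) had an adjusted p of 1 by limma. Slc25a2, which encodes a mitochondrial ornithine carrier, had a promoter with 0 covered bases in every library. Outside the locus, the first genes on each side, Zmat2 and Hars upstream and Diaph1 and Hdac3 downstream, had none either.

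For whole clusters, the covered lengths entered an exact permutation test (two-sided), whose smallest p with 2 against 2 libraries is 0.333. In Pcdha, peaks covered 10.48 and 9.008 kb in Kdm6b-cKO libraries against 8.706 and 6.45 kb in WT, with means of 9.744 ± 1.042 kb for Kdm6b-cKO and 7.578 ± 1.595 kb for WT (SD, n = 2 each). Both Kdm6b-cKO values were above both WT values (difference 2.166 kb, exact p = 0.333). In Pcdhg they covered 0 and 0.776 kb in Kdm6b-cKO libraries against 0 kb in both WT libraries (exact p = 1), and in Pcdhb 0 kb in each. The locus from the first base of Pcdha to the last of Pcdhg, 911.7 kb, was covered over 2.132% and 1.92% in Kdm6b-cKO and 1.765% and 1.403% in WT. In 3 of the 4 libraries, all but WT replicate 9, that was below the covered share of the same library over chromosome 18.

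Density of CpG dinucleotides, a feature that Polycomb-bound promoters in mammals are known for, did not set the marked members apart from the rest of the family. Member promoters held a median of 20.5 CpG per kb of the TSS ± 3 kb window (11.33 to 41.16), against 18.16 for all promoters and 22.5 for those marked in all 4 libraries. The alpha members had a median of 24.41, the Pcdhb members 15.58, the gamma-a members 19.25 and the gamma-b members 27.58. Pcdhac2 held 26.5, Pcdhac1 17.83 and Pcdhga1 13.83 CpG per kb. All 3 values lie within the range of the unmarked members. Above the median of the promoters marked in all 4 libraries were 26 members, of which 1 was marked, Pcdhac2. Of the 8 members with more CpG than Pcdhac2, led by Pcdhga12 with 41.16 and Pcdhga11 with 37.99, 0 were marked. Among promoters of other genes with at least the CpG density of Pcdhac2, 33.77% were marked in at least 1 library and 24.85% in all 4.

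**Figure D3:**
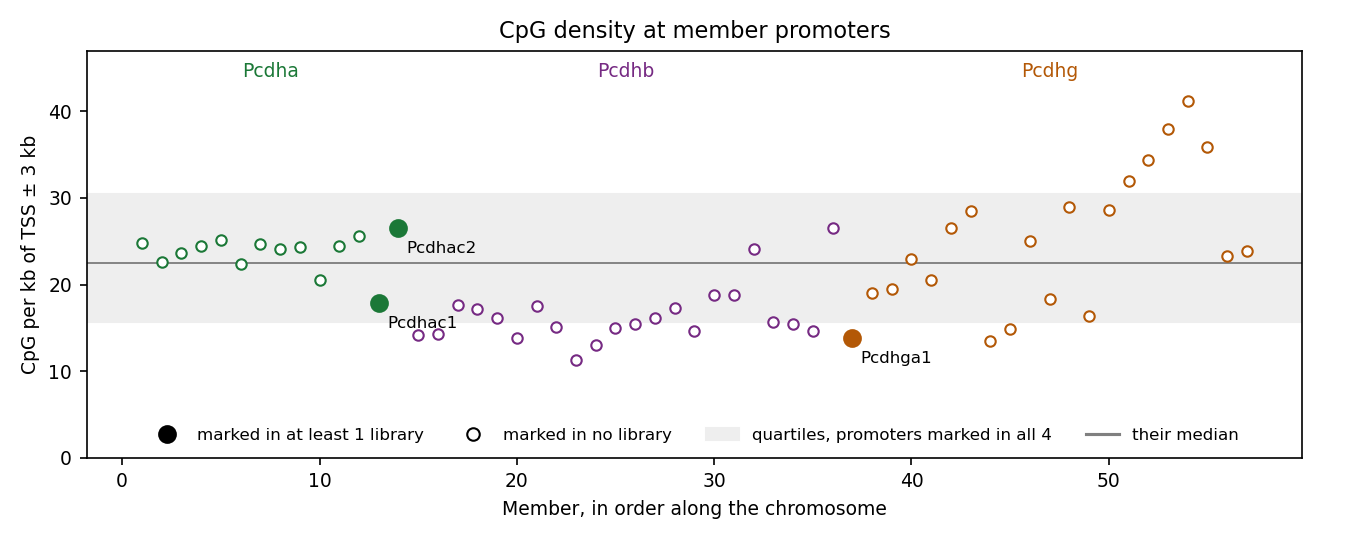
CpG per kb of the TSS ± 3 kb window for the 57 members in order along the chromosome, with filled points for the 3 marked in at least 1 library and open points for the other 54. The grey band and line give the quartiles (15.66 to 30.49) and median (22.5) of the 3294 promoters marked in all 4 libraries, and open points lie below, within and above the band.

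Sequence that occurs more than once in the genome limits where short reads can be placed. The share of 31-base words of a promoter window that occur more than once in the genome had a median of 8.692% over members, against 3.643% for other promoters of chromosome 18. It was highest for Pcdhb9, at 31.67%, and at most 0.787% for the 5 C-type members. It was 0.184% for Pcdhac2 and 0% for Pcdhac1, and 0.0168%, 0.787% and 0.268% for Pcdhgc3, Pcdhgc4 and Pcdhgc5, which were unmarked. Such words are shorter than the study's reads, and matches among members were not told apart from matches elsewhere. How the reads of such words were treated in peak calling is not given in the sources used here, and their part in the empty stretches was not tested. Windows of neighbouring members overlapped in 21 cases, since member TSSs lie a median of 7.071 kb apart, so member promoters are not independent of each other.

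The non-clustered members of the protocadherin and atypical cadherin family, which lie singly in the genome, carried the mark at most of their promoters. Of 25 such genes, 19 were marked in at least 1 library and 16 in all 4, beside 28.8% and 15.1% of all promoters. Of the 57 clustered members, 3 and 1 were, and no test was run between the lists. By limma, 3 of the 19 non-clustered genes were higher in Kdm6b-cKO and 0 lower, beside 7.97% and 0.0959% of tested promoters. At an unadjusted p under 0.05 these counts were 5 and 0, beside 1602 and 44 of all 6258 tested. The median difference over the 19 was 16.64 points, beside 11.69 over all tested promoters. Cdhr5, a cadherin of the intestinal brush border, was covered over 100% and 92.85% in Kdm6b-cKO against 27.6% and 11.95% in WT (adjusted p = 0.0498, limma). Fat3, a giant cadherin of the Fat family, was covered over 100% and 100% against 83.04% and 83.69% (adjusted p = 0.022, limma), and Cdhr1, a photoreceptor cadherin, over 100% and 100% against 86.19% and 84.9% (adjusted p = 0.0296, limma). For Fat2, Pcdh11x and Celsr2, which follow Cdhr5 in the size of the difference, adjusted p was 0.33, 0.0831 and 0.305 (limma). Each of the Cdhr5, Fat3 and Cdhr1 calls was lost without WT replicate 7 (adjusted p = 0.0831, 0.0538 and 0.0558, limma) and without WT replicate 9 (adjusted p = 0.142, 0.0883 and 0.0929, limma), and those of Cdhr5 and Cdhr1, but not that of Fat3, also without either Kdm6b-cKO library. Centring the libraries turned the Fat3 and Cdhr1 differences of 16.64 and 14.46 points to −0.55 and −2.73.

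Among the 12 non-clustered genes with a Pcdh symbol, the covered share ranged from 0% to 100% between genes. Pcdh1 and Pcdh8 were covered over 100% in all 4 libraries, and Pcdh7, Pcdh9, Pcdh18 and Pcdh19 over 0% in all 4. Pcdh10 was covered over 40.51% and 43.21% in Kdm6b-cKO and 44.06% and 44.06% in WT. Pcdh17 was covered over 66.11% and 49.68% in Kdm6b-cKO and 75.1% and 76.29% in WT. Neither difference, of −2.2 points for Pcdh10 and −17.81 for Pcdh17, passed the test (adjusted p = 0.483 and 0.304, limma). At TSS ± 5 kb the Pcdh10 difference turned to 1.625 points. Pcdh17 passed as lower in 3 of 12 alternatives, among them equal covered length, with −30.5 points in place of −17.8 (adjusted p = 0.0132, limma). Pcdh1 and Pcdh12 are also on chromosome 18, and Pcdh12 was covered over 68.54% and 65.32% in Kdm6b-cKO and 45.36% and 23.08% in WT (adjusted p = 0.207, limma).

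**Figure D4:**
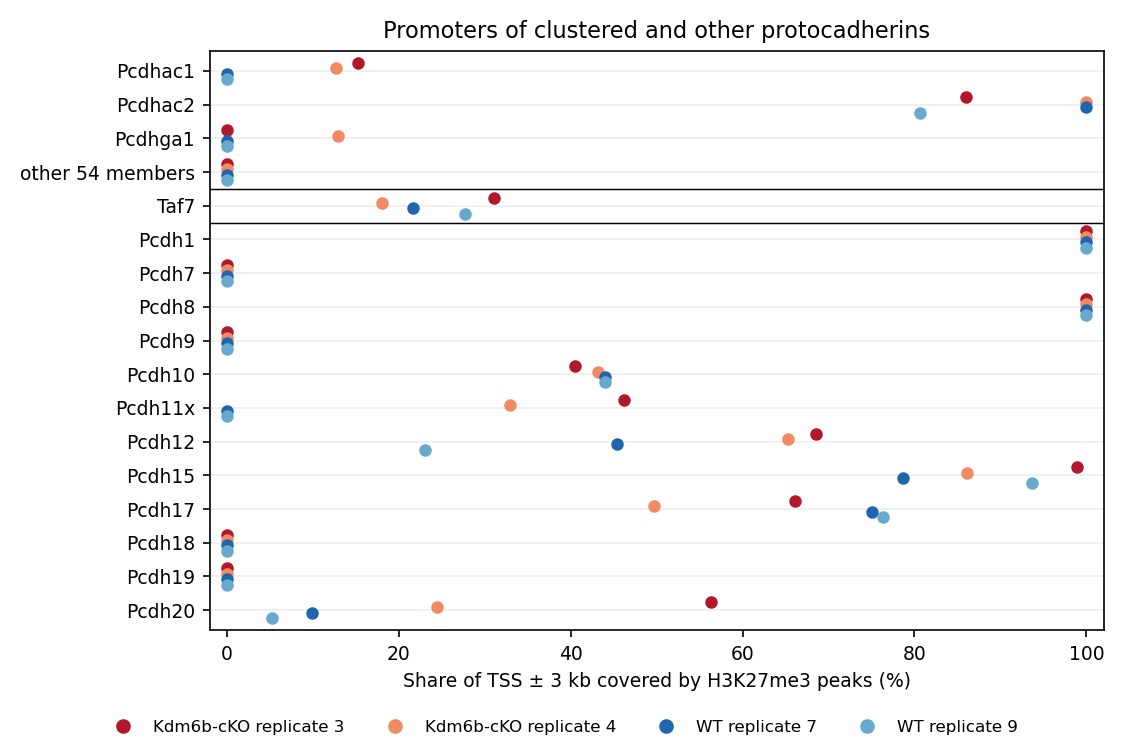
Covered share of the TSS ± 3 kb window in each of 2 Kdm6b-cKO and 2 WT libraries, for the 57 clustered members (top), Taf7 and the 12 non-clustered genes with a Pcdh symbol (bottom), with 1 point per library. Of the clustered members, Pcdhac2 alone lies above 20%. Of the 12 non-clustered genes, 6 are marked in all 4 libraries, beside 15.1% of all promoters.

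The listed genes with a Cdh symbol were marked in part. They are classical and type II cadherins, with some of other classes such as Cdh13, Cdh16, Cdh17 and Cdh23. Of 23 genes, 11 were marked in at least 1 library and 6 in all 4, beside 28.8% and 15.1% of all promoters. By limma, 0 of the 11 that entered the fit passed in either direction, beside 7.97% higher and 0.0959% lower among all tested promoters. At an unadjusted p under 0.05, 3 were higher and 0 lower, beside 1602 and 44 of all 6258 tested. The largest differences were those of Cdh15, the cadherin of muscle precursors, at 30.94% and 61.09% in Kdm6b-cKO against 9.465% and 0% in WT (adjusted p = 0.239, limma), and Cdh4, Cdh7 and Cdh6 followed (adjusted p = 0.533, 0.108 and 0.133, limma). The median difference over the tested genes was 9.2 points. Cdh11, which fibroblasts use for contact with each other, had an unmarked promoter in every library. Cdh2 of the same list was covered over 25.08% and 0% in Kdm6b-cKO and 6.682% and 0% in WT.

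Genes known to act on clustered protocadherin promoters were marked in a share near that of all promoters. Of 22 regulators, 7 were marked in at least 1 library and 4 in all 4, beside 28.8% and 15.1% of all promoters. By limma, 1 of the 7 that entered the fit was higher and 0 were lower, beside 7.97% and 0.0959% of tested promoters. At an unadjusted p under 0.05 these counts were 2 and 0, beside 1602 and 44 of all 6258 tested. Ctcf and the cohesin genes Rad21 and Smc3, which loop the promoters to their enhancers, had no covered base in any library, and neither had Smchd1, whose protein keeps the clusters silent in mouse. The gene that was higher, Smc1a, encodes a cohesin subunit and is X-linked, at 100% and 90.25% in Kdm6b-cKO and 24.51% and 12.81% in WT (adjusted p = 0.0435, limma). The X chromosome as a whole was covered over 8.733% and 5.023% in Kdm6b-cKO and 5.593% and 3.666% in WT, and its part in the Smc1a difference was not tested. This call was lost with any 1 library left out (adjusted p from 0.11 to 0.174, limma), and the difference of 76.46 points turned to −6.41 under equal covered length. Tet3, which encodes an oxidase of methylated cytosine, was covered over 68.26% and 53.59% against 4.916% and 0% (adjusted p = 0.0628, limma), and for Dnmt3a, a DNA methyltransferase gene, adjusted p was 0.429 (limma). Of 18 signalling partners, 4 entered the fit and 0 passed limma, beside 7.97% higher and 0.0959% lower among tested promoters. At an unadjusted p under 0.05 (limma), 1 was higher and 0 lower, beside 1602 and 44 of all 6258 tested. Beside 28.8% and 15.1% of all promoters, 4 of the partners were marked in at least 1 library and 2 in all 4. They were Cyfip2, of the WAVE complex that drives actin branching, at 100% and 100% in Kdm6b-cKO against 54.59% and 34.03% in WT (adjusted p = 0.0944, limma), the receptor kinase gene Ret, and the kinase genes Fyn and Ptk2b, marked in Kdm6b-cKO replicate 3 alone.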

How the data were processed

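H3K27me3 ChIP-seq libraries of cultured dermal fibroblasts were aligned to mm10 by the authors, and the submitters' processing notes name Bowtie2 2.3.5.1, SAMtools 1.9, MACS2 2.2.7.1, deepTools 3.5.1 and bcl2fastq. Per the study's methods, reads were subsampled to make the libraries alike in depth, and broad peaks were called. Each library had a list of its own, so replicates were not pooled. The use of the input and of reads with several matches is not given in the sources used here. The deposited lists give, per peak, positions and the authors' MACS2 values: a display score, a fold ratio over local background, −log10 p and −log10 q. Here they served to describe, rank or filter the peaks of 1 list. The deposited files hold no read count, so the reads behind each peak are unknown and no counting interval can be given.

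Peaks on 19 autosomes and the X chromosome were merged at an overlap of at least 1 bp, and covered bases of TSS ± 3 kb (1 TSS per GENCODE M21 gene, its 5′ end) and of the clusters were counted per library. Covered percent was tested in R 4.3.3 with limma 3.58.1 (functions lmFit and eBayes) over promoters marked in at least 1 library. The test was two-sided, with Benjamini-Hochberg adjustment over all of these promoters. The step was also run on simulated data in which 200 promoters were raised per round. Those data held no shift over all promoters, unlike the real lists, where the mean difference was 17.19 points. The limma fit is limited by values that are bounded and that replicates often share exactly. Cluster length was tested over the 6 arrangements of 2 against 2 libraries. GC, CpG and repeated 31-base words were read from GRCm38.p6, the assembly of mm10. Python 3.11.15 with numpy 2.4.6, pandas 2.3.3 and matplotlib 3.10.9 was used.

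Samples were grouped by title. Named genes were the C-type members, per cluster the 2 members with the most and the 2 with the least covered length (ties in position order), members past limma or marked in both Kdm6b-cKO libraries alone, genes between the clusters, the first 2 genes on each side, and up to 4 of each other list by absolute difference. One gene that this rule takes is left out of the text. Any other gene named was picked after its values were seen. The members and lists were chosen with earlier results of these data known. Alternatives were equal covered length, equal number of peaks, −log10 q of at least 5, TSS ± 1.5 or 5 kb, 1500 bp as the minimum, no filter, centred libraries, cluster limits and leaving out each library. The upstream entry named Pcdha11 (ENSMUSG00000007440) was kept under that symbol.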

Additional observations from a re-analysis of the deposited data

How the results depend on the processing

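No member was lower in Kdm6b-cKO by limma and none was marked in both WT libraries alone under any alternative run, and Pcdhb stayed at 0 kb in all of them. The Pcdha difference was positive throughout, 0.2035 to 3.428 kb, and 1.038 to 3.294 kb with a library left out, but no p under 0.333 is possible. The 1 member called higher (Pcdhac1) became 0 under equal covered length, equal number of peaks, −log10 q of at least 5, TSS ± 5 kb, a minimum of 1500 bp, no filter and centring, and 0 to 2 with a library left out (0 without either WT library, 2 without Kdm6b-cKO replicate 3). Centring turned the difference of Pcdhac1 to −3.163, of Fat3 to −0.5463 and of Cdhr1 to −2.729 points, and equal covered length that of Smc1a to −6.407 points. Equal covered length, −log10 q of at least 5 and 1500 bp left 1 member marked in at least 1 library and 0 in both Kdm6b-cKO libraries alone, which ranged from 1 to 2 with a library left out. At −log10 q of at least 5, 0 members were marked in all 4 libraries, since WT replicate 9 then had no peak at Pcdhac2. The Pcdhg difference of 0.388 kb became 0 under equal covered length, equal number of peaks and −log10 q of at least 5, and 0 to 0.776 kb with a library left out. Over all promoters, the 499 called higher became 135 under equal covered length and 153 with no filter, and 0 to 1357 with a library left out (0 without WT replicate 9, where 1098 had an unadjusted p under 0.05, 1168 without Kdm6b-cKO replicate 3 and 1357 without replicate 4). The 6 called lower became 78 under equal covered length, 16 under equal number of peaks, 1 at TSS ± 5 kb, 1 with no filter, 58 with centring and 0 to 62 with a library left out. With 1 library in an arm, it is assumed to vary like the other. The causes of these changes were not tested. No paired analysis was possible because the groups share no replicate number. With 2 libraries per group and no read counts, small or absent differences were not resolved.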

Other observations

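Beyond the locus, Arap3 starts 157.1 kb from the last member and encodes a GTPase-activating protein for Arf6 and RhoA. Its promoter was covered over 27.73% and 28.55% in Kdm6b-cKO, against 0% and 0% in WT. Further inside the gene, all 4 libraries had peaks. From 37986630 to 37996334 these covered 9705 and 7763 bp in Kdm6b-cKO, against 4710 and 2833 bp in WT. The promoter difference of 28.14 ± 0.8 points (SE) had an adjusted p of 0.0153 by limma. Arap3 entered the fit only through the Kdm6b-cKO libraries, the group in which it was higher. Of tested promoters 7.97% were higher, and 4.28% of all promoters were marked in both Kdm6b-cKO libraries alone. The call was kept with no filter (adjusted p = 0.0176, limma). It was lost under equal covered length (adjusted p = 0.274, limma) and with centred libraries (adjusted p = 0.393, limma). Of the 20 protein-coding genes that are no members and start within the locus or 250 kb of it, 4 were marked in at least 1 library and 1, Taf7, in all 4. Over all promoters these shares were 28.8% and 15.1%. Within Pcdha, WT replicate 7 had a peak of 450 bp (37138326 to 37138775) upstream of the Pcdhac2 block that no other library had.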
